A study of Rattus norvegicus with 6 samples.

Results

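The genes described here are Wnt2b, Shisa3 and 8 further genes of the Wnt pathway (Wnt4, Wnt5a, Sfrp1, Sfrp2, Wif1, Axin2, Lef1 and Ctnnb1), followed in rat kidney on one-colour Agilent arrays. They are 10 genes in a fit of 17892 features, 10633 of them named. A probe belonged to a gene where its RefSeq accession, without version, was that of the gene. By this rule 8 of the 10 genes had 9 probes, and Sfrp1 and Wif1 had no probe named here. The set was chosen by the measured difference between the 2 groups: Wnt2b and Shisa3 lead it because of their signal in this contrast, so their differences are given as a description and no test of them is offered as support.

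The samples were 3 of kidney from rats treated with Bailing Capsule, a fermented Cordyceps preparation, and 3 of kidney from diabetic rats, all at 21 weeks. The labels state no strain, sex, dose or way of inducing diabetes, and leave it unsaid whether diabetes was present in the treated animals. A healthy group is not part of the data analysed here. Nothing but the word replicate tells the samples of a group apart, so p-values measure only the spread between these samples, which may be technical.

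Wnt proteins are secreted lipid-modified ligands. In the canonical branch they bind Frizzled receptors and the co-receptors Lrp5 and Lrp6, which halts the destruction of beta-catenin, and beta-catenin then switches on target genes with Tcf and Lef factors. Other Wnt ligands act through Ror receptors and planar polarity proteins. Secreted inhibitors such as the Sfrp proteins and Wif1 bind the ligands outside the cell. In the kidney the pathway is known for building nephrons in the embryo, and for its return in tubular injury and fibrosis in adult rodents.

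Wnt2b encodes a canonical ligand, found in mouse in the mesenchyme around the embryonic kidney. Its background-subtracted signal, in the scanner's units and before any scaling between arrays, was 122, 148 and 159 in Bailing Capsule kidneys, compared with 13.7, 20.9 and 12.1 in diabetic kidneys. Every Bailing Capsule array was far above every diabetic array, and the groups did not overlap. The scanner software's own error was 12.3 to 15.9 on the Bailing Capsule arrays and 1.88 to 2.82 on the diabetic arrays. The spot was called well above background on 3 of 3 Bailing Capsule arrays and on 2 of 3 diabetic arrays, diabetic replicate 3 being the exception.

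After scaling, in which the 75th percentile of each array's log2 signal is subtracted, Wnt2b stood at -0.87, -1.34 and -0.57 in Bailing Capsule kidneys, compared with -4.32, -3.41 and -4.99 in diabetic kidneys. The means were -0.93 ± 0.39 in Bailing Capsule kidneys and -4.24 ± 0.79 in diabetic kidneys (log2, SD, n = 3 each). The difference was 3.31 (SE 0.39), or 9.91-fold. Because the diabetic values lie close to background, the size of this fold is imprecise.

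Shisa3 belongs to a family first described in the frog Xenopus, whose founding protein holds Frizzled receptors back in the endoplasmic reticulum. In human lung cancer cells SHISA3 is known to promote the breakdown of beta-catenin. Its signal was 79.3, 99.1 and 72.6 in Bailing Capsule kidneys, compared with 17.2, 17.2 and 17.9 in diabetic kidneys. All 6 spots were well above background, and the groups did not overlap. The diabetic signals lay close together before scaling, but after it they were -3.99, -3.69 and -4.43. On the scaled log2 axis the means were -1.71 ± 0.21 in Bailing Capsule kidneys and -4.04 ± 0.37 in diabetic kidneys (SD, n = 3 each), a difference of 2.33 (SE 0.28), or 5.03-fold. As for Wnt2b, the diabetic signals were low, so the size of this fold is imprecise.

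**Figure D1:**
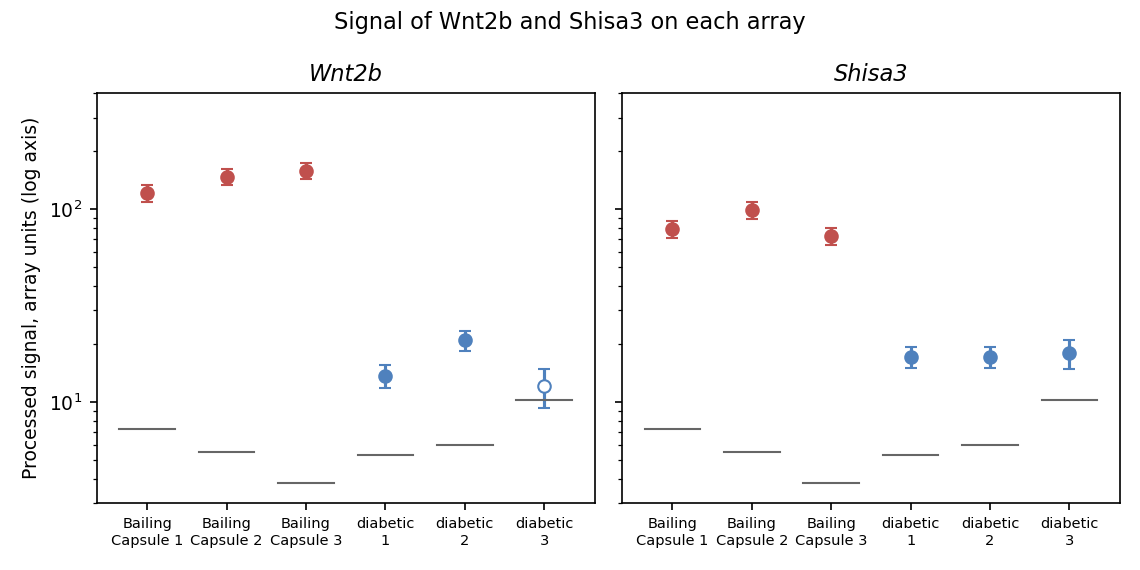
Background-subtracted signal of Wnt2b (left) and Shisa3 (right) on each array, on a log axis in scanner units; bars are the scanner software's error for the spot, the open symbol is a spot not well above background, and grey lines are the lowest signal well above background on that array. Bailing Capsule arrays lie at 122 to 159 for Wnt2b and 72.6 to 99.1 for Shisa3, above all diabetic arrays, which lie at 12.1 to 20.9 for Wnt2b and 17.2 to 17.9 for Shisa3.

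The promoters of both genes are shown because the genes were high on the same arrays, and that of Axin2 because it is a well-known target of beta-catenin with Tcf sites. Each sequence is the 250 bases before the annotated transcript start, 5′ to 3′ on the gene's strand, from RefSeq on build GRCr8. Capitals mark CTTTGA, the core letters that Tcf and Lef factors prefer, searched on both strands with TCAAAG as its reverse.
Wnt2b, chr2:195156946-195157195, minus strand: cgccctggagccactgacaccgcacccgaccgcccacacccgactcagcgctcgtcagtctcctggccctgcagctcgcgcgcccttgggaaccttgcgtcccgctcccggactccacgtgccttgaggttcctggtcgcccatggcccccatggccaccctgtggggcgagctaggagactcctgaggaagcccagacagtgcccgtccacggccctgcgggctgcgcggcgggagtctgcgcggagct
Shisa3, chr14:40922136-40922385, minus strand: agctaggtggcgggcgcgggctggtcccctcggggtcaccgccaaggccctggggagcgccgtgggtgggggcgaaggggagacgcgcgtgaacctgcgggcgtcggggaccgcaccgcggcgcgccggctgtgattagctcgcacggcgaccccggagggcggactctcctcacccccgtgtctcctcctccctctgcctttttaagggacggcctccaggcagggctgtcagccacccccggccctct
Axin2, chr10:94398535-94398784, plus strand: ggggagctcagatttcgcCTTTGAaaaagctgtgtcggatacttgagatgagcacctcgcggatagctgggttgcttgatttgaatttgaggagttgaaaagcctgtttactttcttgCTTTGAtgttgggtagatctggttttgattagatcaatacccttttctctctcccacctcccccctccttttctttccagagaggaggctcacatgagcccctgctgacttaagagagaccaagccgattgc

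Axin2 held 2 matches, which begin 232 and 132 bases before the transcript start. Neither Wnt2b nor Shisa3 held one, which says only that these letters are not in this window. Of the 9 genes of the set with a promoter in the table, Axin2 alone had a match, and 13.9% of all 33469 promoters had at least 1. The windows of Wnt2b and Shisa3 were 71.6% and 74.0% G or C, that of Axin2 47.6%, and the median promoter was 51.2%.

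The arrays shared 2 scans, each of 1 slide. Diabetic replicate 1 was on the slide of the 3 Bailing Capsule arrays, here the first, and diabetic replicates 2 and 3 were on the second. Within the first slide, Wnt2b differed by 3.39 and Shisa3 by 2.28 (log2, Bailing Capsule minus diabetic replicate 1), about as much as over all arrays. These values rest on 1 diabetic array. With slide as a block in the fit, Wnt2b still passed and Shisa3 did not, at the same 3.39 and 2.28.

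Beside these results, Upk1b, a urothelial plaque gene, had 1.5 (SE 0.57, limma adjusted p = 0.519), with groups that did not overlap, while the urothelial keratin gene Krt5 did not overlap the other way, at -0.49 (SE 0.24, limma adjusted p = 0.705). Of the 6 tested urothelial markers of 8 listed, 4 were positive and 2 negative. Groups did not overlap for 33.3% of these 6, against 11.6% of all features with 6 values. The summed scaled level of the 6 was 2.46, 0.99 and 0.899 in Bailing Capsule kidneys and ran from 0.937 to 1.09 in diabetic kidneys. That of 10 tested fibroblast, pericyte and smooth muscle markers of 11 listed ran from 11.8 to 16 in Bailing Capsule kidneys and from 12.7 to 16.9 in diabetic kidneys. The 6 tested liver markers of 7 listed were all negative, with a median of -1.02. The collecting duct transporter gene Slc26a4 was the 1 marker called, at 1.68 (limma adjusted p = 0.0457). Of the 10 tested collecting duct markers, 8 were positive and 2 negative. Groups did not overlap for 40% of them, against 11.6% of all features with 6 values. Besides Slc26a4 these were Atp6v1g3 (1.09) and Slc4a1 (0.52), both higher, and Aqp3 (-0.84), which was lower. For each of the 9 cell type lists the summed levels of the groups overlapped, though a sum mostly follows its brightest genes. Of the 6 liver markers, 4 were lower without overlap (66.7%, against 6.97% of all features with 6 values that were lower without overlap). The liver markers' median deviation from their diabetic means was -0.99, -1.06 and -1.31 on the Bailing Capsule arrays. On the diabetic arrays it was -0.12, 0.15 and 0.09. All 8 proximal tubule and all 6 podocyte markers passed the filter, while Slc12a1, Pvalb and Trpm6 of the loop and distal tubule were not tested. Of the proximal tubule markers 1 was positive and 7 negative, with a median of -0.29. Podocyte markers had 5 positive and 1 negative, with a median of 0.27. The part of cell makeup in the differences was not tested, and in whole tissue more cells of a type and more RNA per cell cannot be told apart.

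limma called 57 of 17892 features, or 0.319%, at an adjusted p under 0.05. The share called higher in Bailing Capsule kidneys was 0.129%, and the share called lower was 0.19%. Of the 5 genes of the set that passed the filter on dim probes, Wnt2b and Shisa3 were called and 3 were not. Since this contrast chose the set, nothing is read from that count. Wnt2b passed the filter through the Bailing Capsule arrays only. Among all features ranked from the largest rise down, Wnt2b was number 6 and Shisa3 number 14.

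Of the other 2 ligands of the set, 1 was bright enough to compare. Wnt5a, which acts mainly through Ror receptors, had signals of 60.2, 76.6 and 58.6 in Bailing Capsule kidneys, compared with 59.6, 65.3 and 92.4 in diabetic kidneys. The groups overlapped, and the scaled difference was -0.05 (SE 0.25, log2). Wnt4, which in mouse turns nephron progenitors into epithelium, was not well above background on any of the 6 arrays. Its signals were 3.65, 4.09 and 1.36 in Bailing Capsule kidneys, compared with 1.23, 2.50 and 2.47 in diabetic kidneys. These values set no level, and no fold is given for Wnt4.

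Sfrp2, a secreted protein that binds Wnt ligands, was the third gene of the set whose groups did not overlap. Its signals were 281, 410 and 344 in Bailing Capsule kidneys, compared with 206, 174 and 212 in diabetic kidneys. All of these were well above background. Scaled, the means were 0.33 ± 0.21 in Bailing Capsule kidneys and -0.54 ± 0.28 in diabetic kidneys (log2, SD, n = 3 each). The difference was 0.88 (SE 0.26), or 1.84-fold, and it was not called. Non-overlapping groups were seen for 11.6% of all features with 6 values, 4.64% higher and 6.97% lower in Bailing Capsule kidneys. Among the 5 genes here they were seen for Wnt2b, Shisa3 and Sfrp2. Since this contrast chose the set, nothing is read from that count either. Within the first slide the difference of Sfrp2 was 0.74.

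Ctnnb1, which encodes beta-catenin itself, had signals of 23.9, 53.8 and 22.3 in Bailing Capsule kidneys, compared with 23.4, 29.0 and 42.2 in diabetic kidneys. The highest value of each group belonged to its brightest array by 75th percentile, and after scaling the means were -3.15 ± 0.31 in Bailing Capsule kidneys and -3.23 ± 0.30 in diabetic kidneys. The difference was 0.08 (SE 0.28), with overlapping groups. Within the first slide it was 0.40.

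The 2 genes of the set that are best known as readouts of beta-catenin were near or below background. Axin2, a scaffold of the destruction complex and itself a target, was not well above background on any array. Its signals were 1.99, 1.28 and 0.886 in Bailing Capsule kidneys, compared with 1.05, 3.59 and 4.92 in diabetic kidneys, and on 4 of the 6 arrays the scanner's error was about as large as the signal. Lef1, a DNA-binding partner and target of beta-catenin, had 2 probes, neither of which passed the filter. The first was well above background on 1 Bailing Capsule array and 2 diabetic arrays, with signals of 5.42, 9.01 and 2.76 in the Bailing Capsule group and 6.43, 12.3 and 8.40 in the diabetic group. The second was above on 1 array of each group, with 1.51, 13.9 and 2.47 in Bailing Capsule kidneys compared with 4.36, 4 and 15.1 in diabetic kidneys. Both probes overlapped between the groups. A difference in Axin2, Lef1 or Wnt4 was therefore not detectable at this signal, which does not show that there is none.

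**Figure D2:**
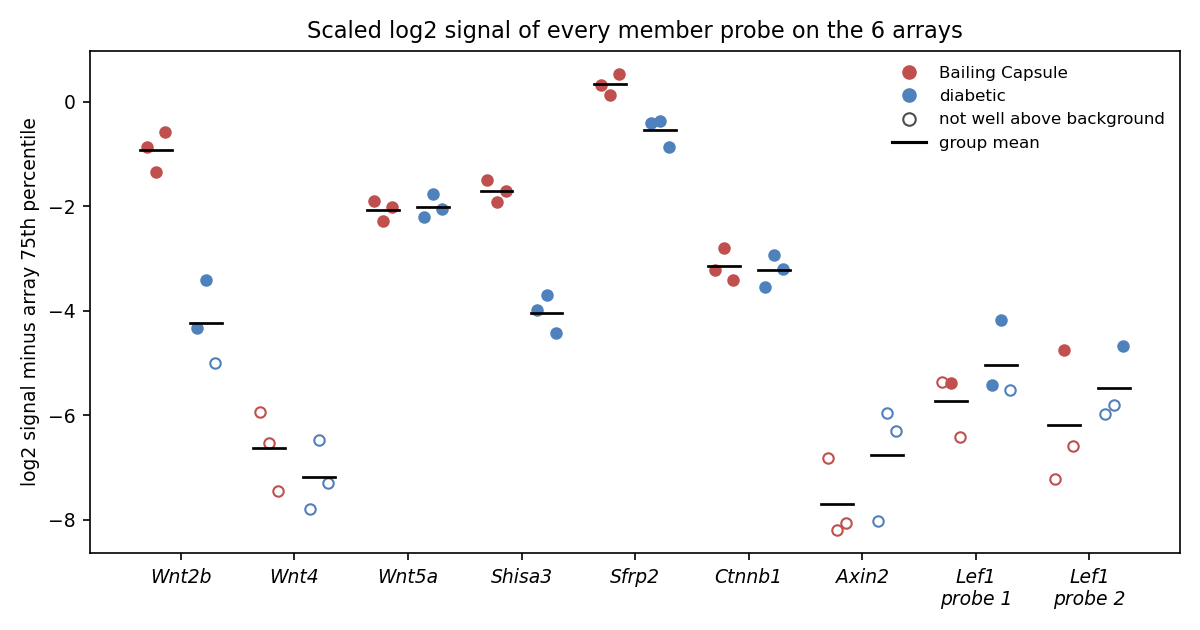
Scaled log2 signal (log2 minus the array's 75th percentile) of the 9 probes of the set on the 6 arrays; points are arrays, Bailing Capsule left and diabetic right in each pair, open points are not well above background, and lines are group means. Wnt2b, Shisa3 and Sfrp2 separate the groups, with Wnt2b means of -0.93 for Bailing Capsule and -4.24 for diabetic kidneys, while Wnt5a and Ctnnb1 overlap and Wnt4, Axin2 and Lef1 lie at the bottom; heights of different probes cannot be compared.

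A list of 130 other Wnt pathway genes was read from the same fit. Of these, 106 had a named probe and 67 passed the filter, 7 of them through 1 group only. limma called 0 of the 67, against 0.319% of all features. At an unadjusted p under 0.05 there were 3, against 7.55% of all features. Groups did not overlap for 6 of the 65 genes with 6 values (9.23%), against 11.6% of all features with 6 values. Differences were positive for 25 and negative for 42, and 37.9% of all features were positive. The median difference was -0.09 over the 67 genes and -0.09 over all features.

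Ligands were mostly dim. Of 18 other ligand and R-spondin genes with a probe, 9 were not well above background on any array and 3 were tested. Wnt11, a ligand of the branching ureteric bud tips in mouse, ran opposite to Wnt2b, with scaled values of -3.83, -3.43 and -4.36 in Bailing Capsule kidneys, compared with -2.40, -2.62 and -3.01 in diabetic kidneys. The groups did not overlap, but the difference of -1.20 (SE 0.31) was not called (limma adjusted p = 0.215). A dimmer probe of Wnt11 gave -0.74. Wnt3 and Wnt5b had -0.25 and -0.04, with overlapping groups. The Wnt3 probe was very bright, unlike most ligands, with scaled means of 7.75 in Bailing Capsule kidneys and 8 in diabetic kidneys.

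Receptors and the secretion machinery showed no called gene among 13 tested. Their differences ran from -0.40 to 0.43, with a median of -0.04. Fzd4, a Frizzled receptor that also binds norrin, had 0.43 (SE 0.30), and Fzd1 had -0.36 (SE 0.25). The co-receptor gene Lrp6 had -0.39, with 0.14 at a dimmer probe, and the R-spondin receptor gene Lgr5 had -0.40. Within the first slide Lgr5 had 0.34, so its sign depended on which diabetic arrays were used.

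Among 9 tested inhibitors outside the set, 7 had negative and 2 positive differences. Dkk4, a secreted antagonist of Lrp5 and Lrp6, had scaled values of -2.90, -2.55 and -2.73 in Bailing Capsule kidneys, compared with -5.16, -4.21 and -2.60 in diabetic kidneys. Diabetic replicate 3 lay among the Bailing Capsule arrays, and the difference of 1.26 (SE 0.53) was not called (limma adjusted p = 0.601). Its size rested on single diabetic arrays: it was 1.96 without replicate 3 and 0.68 without replicate 1, and 0.32 with another background correction and scaling (normexp with quantile normalization). Nkd2, which binds Dishevelled, had 0.56 (SE 0.27), and a dimmer probe of it gave -0.10. The Sfrp relatives Frzb and Sfrp5 had -0.44 and -0.33, which is the opposite sign to Sfrp2, but neither passed, and a dimmer probe of Sfrp5 gave 0.28.

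The Shisa family is wide, and many of its members have no known tie to Wnt signalling. The 3 tested relatives of Shisa3 all had negative values, none of them called. Shisa8, Shisa5 and Shisa2 had -0.50 (SE 0.42), -0.42 (SE 0.29) and -0.31 (SE 0.32), each with overlapping groups. A dimmer probe of Shisa5 gave 0.13. Within the first slide Shisa8 had 0.36 and Shisa2 0.37, so the shared sign depended on probe and on diabetic arrays.

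Of 22 tested genes of beta-catenin turnover and its nuclear partners, 11 had positive and 11 negative differences. Pygo2, a chromatin adaptor of beta-catenin, had scaled values of -1.94, -2.87 and -3.25 in Bailing Capsule kidneys, compared with -1.77, -0.72 and -1.57 in diabetic kidneys. The difference was -1.34 (SE 0.39, limma adjusted p = 0.298), and a dimmer probe gave 0.24, so its probes disagree. The destruction complex genes Apc and Gsk3b had 0.50 (SE 0.26) and 0.31 (SE 0.29). The kinase gene Csnk1e had -0.66 (SE 0.58) at its brightest probe and 0.07 at another bright one.

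The 8 tested genes reported as beta-catenin targets were spread evenly, 4 positive and 4 negative, with a median of -0.01. Ccnd1, which encodes cyclin D1, had 0.33 (SE 0.34), Jun 0.29 (SE 0.23), and Twist1, a factor of mesenchymal transition, 0.50 (SE 0.33). Birc5, which encodes survivin and follows cell division, had -0.72 (SE 0.34, limma adjusted p = 0.696). None of these passed. Planar polarity genes gave 3 positive and 6 negative values among 9 tested, and none was called. The core gene Vangl2 had -0.62, Celsr3 -0.59 and Prickle2 -0.58, while Daam1, a formin bound by Dishevelled, had 0.32. A dimmer probe of Celsr3 gave 0.13. Within the first slide Vangl2, Celsr3 and Prickle2 had 0.10, 0.25 and 0.17, so their sign depended on which diabetic arrays were used.

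**Figure D3:**
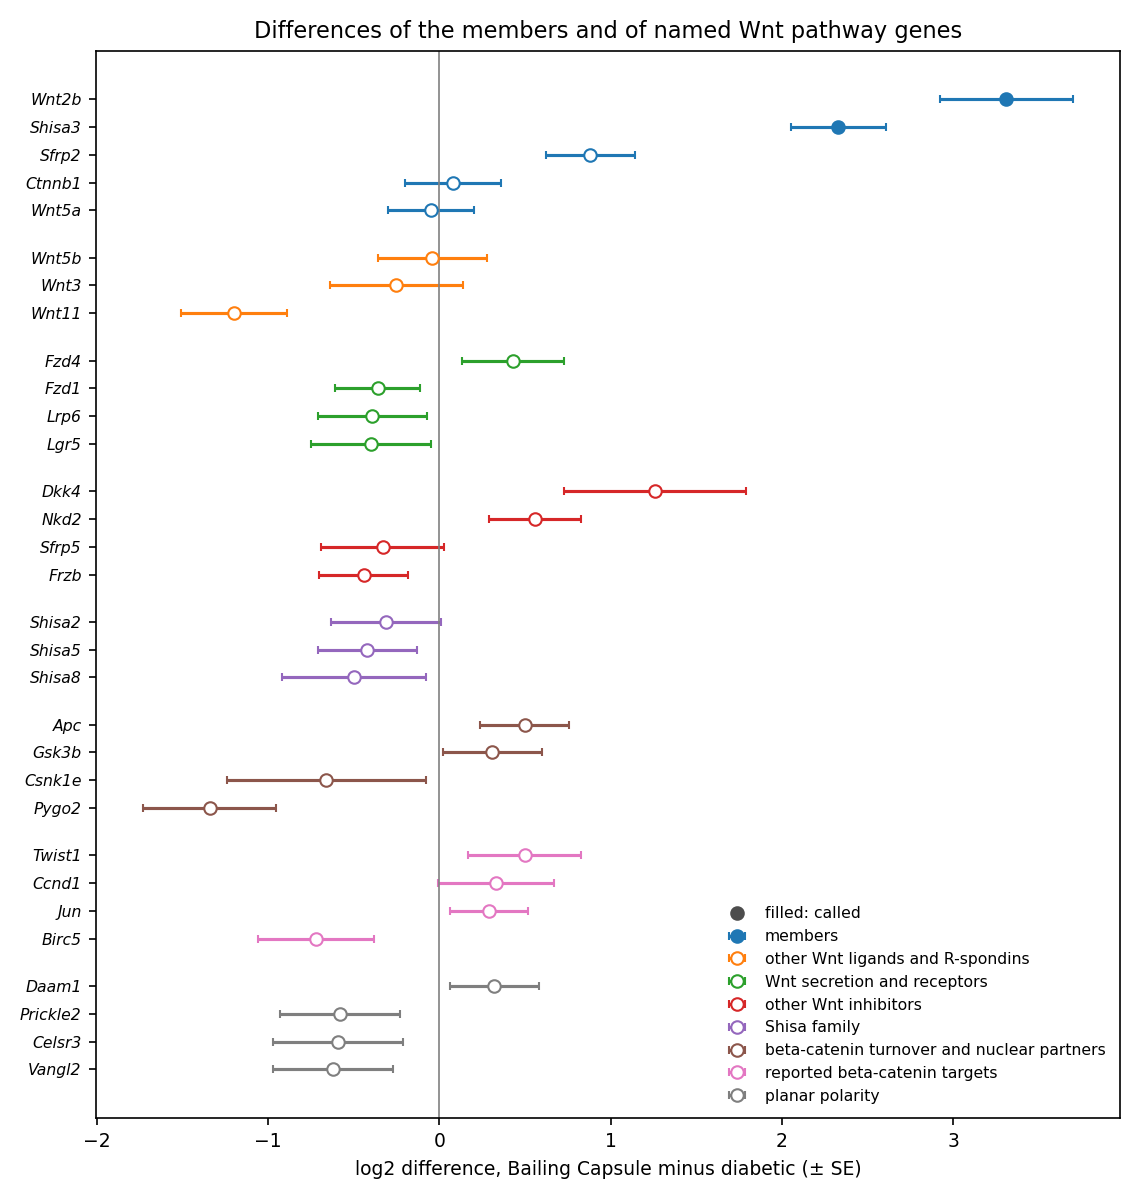
Difference between groups (log2, Bailing Capsule minus diabetic, with SE) for the 5 tested genes of the set and up to 4 genes of each pathway list with the largest differences; filled symbols were called by limma. Wnt2b at 3.31 and Shisa3 at 2.33 lie to the right of all others, and the pathway genes lie between -1.34 for Pygo2 and 1.26 for Dkk4.

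The genes most like Wnt2b and Shisa3 were looked for by Pearson's r of scaled log2 values over the 6 arrays, among 10401 other named genes with 6 values. All points of a gene fall into the same 2 groups of arrays, so r mainly tracks the gap between them, and many genes with separated groups reach a high r. Shisa3 was the gene most like Wnt2b, with r = 0.9897. It was followed by Gbp2, an interferon-induced GTPase gene (0.9881), Slamf9, of a leukocyte receptor family (0.9878), and Isg20l2, an exonuclease gene (0.9877).

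For Shisa3 the order was the cytochrome P450 gene Cyp3a9 (0.9979), Slamf9 (0.9924), Wnt2b (0.9897) and Septin3, a cytoskeletal GTPase gene (0.989). None of the 3 diabetic arrays had Cyp3a9 well above background. Gbp2, Slamf9, Isg20l2 and Septin3 had differences of 0.77, 1.03, 0.70 and 0.61, none of them called.

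The size of both differences depended on how background was handled. In the authors' deposited table Wnt2b had 7.38, 6.91 and 7.76 in Bailing Capsule kidneys, compared with 4.19, 4.60 and 3.12 in diabetic kidneys (log2), a difference of 3.38. With normexp, a model-based background correction that adds a constant of 50 to every spot, followed by quantile normalization between arrays, it had 7.8, 7.27 and 7.82 in the Bailing Capsule group and 6.12, 6.44 and 5.96 in the diabetic group, a difference of 1.46 that was not called. The groups stayed apart in both. Shisa3 likewise had a difference of 2.39 in the deposited table and 0.91 with normexp and quantile normalization, which was not called.

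**Figure D4:**
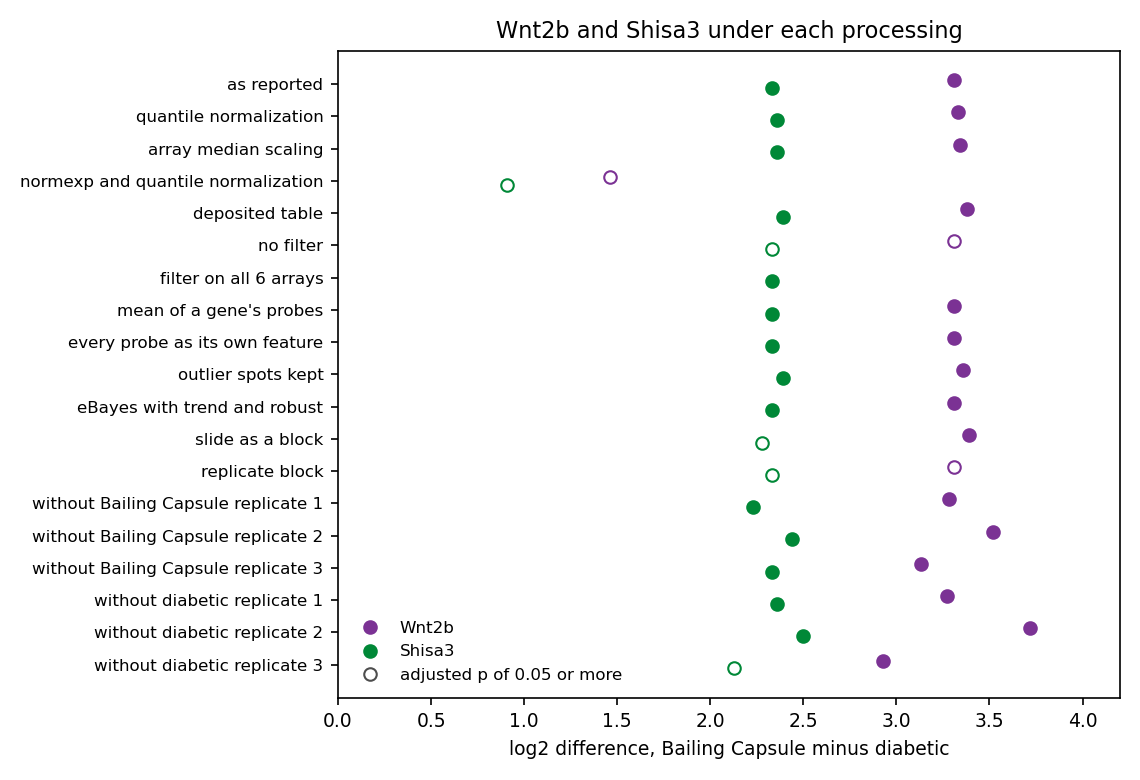
Difference of Wnt2b and Shisa3 (log2, Bailing Capsule minus diabetic) as reported and under each alternative; filled points had a limma adjusted p under 0.05. Wnt2b lay between 1.46 and 3.72 and Shisa3 between 0.91 and 2.50, with the lowest value of each from normexp with quantile normalization.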

How the data were processed

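Total kidney RNA was labelled with Cy3, per the labels, and read on 1-colour Agilent arrays. Per the file headers, Agilent Feature Extraction 11.0.1.1 subtracted background and spatial trend to give each spot its intensity, and arrays were not scaled to each other. The deposited table holds log2 values whose columns share nearly 1 distribution, as read from the values; its making by the authors is not given in the sources used here; it served as an alternative.

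Control spots and outlier spots (597 to 1091 per array) were left out, log2 signals of repeated spots were averaged, and each array was centred on its own 75th percentile. A probe was well above background where at least 50% of its spots were, and entered the fit if so on every array of either group; the brightest kept probe stood for a gene. Probes were named through RefSeq accessions (18005 of 30367). The array design names build rn4, so gene coordinates are not given; promoter positions are those of the GRCr8 table.

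limma 3.58.1 in R 4.3.3 tested the difference for all features, with Benjamini-Hochberg adjustment; the fit was checked on simulated data. The share of probes well above background per array was 64.5% to 73.5%, and pairs of arrays correlated at 0.966 to 0.992. Precision is limited by having 3 arrays a group. The genes of the set and all lists were chosen with earlier results of these data known. Pathway genes are named where called or among the 4 largest differences of their list, and genes like Wnt2b and Shisa3 by the 4 highest correlations; markers were named after their values were seen. Alternatives changed the scaling, background (normexp on median spot and background signals, then quantile normalization), filter, probe rule, outlier spots, variance model, slide, replicate block and each array in turn. Same-numbered replicates deviated from their group means with correlations of -0.181, -0.14 and 0.0194, which is no sign of pairing.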

Additional observations from a re-analysis of the deposited data

How the results depend on the processing

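The number of called features was 57 as reported, 12 with normexp and quantile normalization together, 6 with no filter, 6 with a replicate block on the replicate number, and 17 to 195 when 1 array was left out: 17, 18 and 28 without diabetic replicates 2 and 3 and Bailing Capsule replicate 2, 33 and 141 without Bailing Capsule replicates 3 and 1, and 195 without diabetic replicate 1. With no filter more features were tested, and leaving out an array left fewer arrays. Why the counts changed was not tested. The share called higher was 40.4%, against 55.6% in the deposited table and 73.7% with slide as a block.

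Wnt2b kept its sign in 17 of 17 alternatives and passed in 14, and Shisa3 in 18 of 18 and passed in 13. Since this contrast chose both genes, these counts describe the settings and are no support for the differences. Neither gene has a further probe, so the probe rules left the differences unchanged at 3.31 and 2.33. The changed variance model left them unchanged too. With normexp and quantile normalization they had 1.46 and 0.91, and with quantile normalization alone 3.33 and 2.36; neither passed with no filter or under the replicate block, where the differences were unchanged at 3.31 and 2.33. Shisa3 also missed with slide as a block (2.28) and without diabetic replicate 3 (2.13). With 1 array left out Wnt2b ran from 2.93 to 3.72 and Shisa3 from 2.13 to 2.50. Wnt2b was not tested under the filter that asked for all 6 arrays, because it was well above background on 2 of 3 diabetic arrays. Sfrp2 had 0.66 to 0.98 over its alternatives and never passed. The groups of these genes do not overlap, so their sign under a block or with an array left out was fixed in advance.

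The count of other Wnt pathway genes called was 0 to 1 when 1 array was left out, the 1 being Pygo2 at -1.71 without Bailing Capsule replicate 1, and 0 elsewhere. Some uncalled genes changed sign. With slide as a block, Shisa8 had 0.36, Shisa2 0.37, Fzd4 -0.06, Lgr5 0.34, Csnk1e 0.81, Sfrp5 0.22, Wnt3 0.43, Wnt5b 0.65, Vangl2 0.10, Celsr3 0.25 and Prickle2 0.17, each resting on 1 diabetic array. Csnk1e had 0.07 with its probes averaged, while singly these probes gave -0.66, -0.09 and 0.07. A probe without a value on an array was left out of that array's mean, so nothing is read from this sign. Wnt3 had 0.06 and Wnt5b 0.01 with quantile normalization, alone and after normexp, and 0.06 and 0.03 in the deposited table; Wnt5b had 0.02 with outlier spots kept. With arrays left out Wnt3 ran from -0.59 to 0.10 and Wnt5b from -0.38 to 0.20.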
